A study of Homo sapiens with 6 samples.

Results

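The genes of cholesterol and fatty acid synthesis were examined in HEK293 cells, a human embryonic kidney line, after Cas9 disruption of the zinc finger genes ZNF146 or ZNF507. The set was given as a list of 31 genes that encode the sterol regulatory element binding proteins (SREBPs), the proteins that control their processing, and the enzymes of their 2 target pathways. Rows of the count table were taken by gene identifier, and 30 of the 31 were found among 57773 genes. The exception was ACACA, the first enzyme of fatty acid synthesis, whose identifier in the annotation used here was not matched, so no value is given for it. All 30 others were high enough to be tested together with 22010 genes in all. By role they were 8 enzymes from acetoacetyl-CoA to the isoprenoids (ACAT2, HMGCS1, MVK, PMVK, MVD, IDI1, FDPS and GGPS1), 11 enzymes of the sterol branch (FDFT1, SQLE, LSS, CYP51A1, TM7SF2, MSMO1, NSDHL, HSD17B7, EBP, SC5D and DHCR7), 5 regulators (SREBF1, SREBF2, SCAP, INSIG2 and MBTPS1), 5 enzymes of fatty acid synthesis (FASN, SCD, ELOVL6, FADS1 and FADS2) and the sterol transfer protein STARD4.

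SREBPs are made as precursors in the membrane of the endoplasmic reticulum, where SCAP escorts them and INSIG proteins retain the complex while sterols are plentiful. When sterols fall, the complex moves to the Golgi, MBTPS1 (site-1 protease) makes the first cut, and the released domain enters the nucleus and binds target promoters. SREBF2 is best known for control of cholesterol synthesis, and SREBF1 for control of fatty acid synthesis. Cultured lines that divide rapidly draw on both pathways for membrane lipid, and the lipids supplied by serum set how far the pathways are switched on.

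RNA was sequenced from 3 groups of 2 libraries, labelled as biological duplicates. EV cells received an empty vector control plasmid, sgZNF146 cells received Cas9 plasmids with 4 target sequences in ZNF146, and sgZNF507 cells received Cas9 plasmids with 4 target sequences in ZNF507. The study's methods name PX459 for the targeting plasmids and do not name the backbone of the empty vector. All 3 groups were transiently transfected, selected in puromycin for 36 h and grown for 2 weeks in all. Each library is therefore a pool of transfected cells, which in the targeted groups can carry different edits, and not a clone. In such bulk samples, fewer cells with a transcript and less of it per cell cannot be told apart.

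Library totals ran from 22724439 to 28524025 counts. ZNF507 stood at 72.0 and 75.5 CPM (counts scaled to library size, with TMM factors) in EV and at 47.2 and 48.7 CPM in sgZNF507, a log2 fold change of -0.62 (SE 0.07, edgeR adjusted p = 0.00195). ZNF146 stood at 115 and 105 CPM in EV and at 99.2 and 103 CPM in sgZNF146, a log2 fold change of -0.13 (SE 0.077, edgeR adjusted p = 1.00), so both sgZNF146 libraries lay below both EV libraries but the difference did not pass the test. ZNF146 was at 88.4 and 101 CPM in sgZNF507, where its log2 difference from EV was -0.21 (SE 0.077, edgeR adjusted p = 1.00), so lower values than in EV were not particular to the ZNF146-targeted libraries. These values are RNA levels and do not measure the proteins. By western blot, the study reported each targeted protein as essentially undetectable in its targeted cells. It also found frequent indels in reads at the target sites of both genes, not seen in control cells. Genes reported in HEK293 cells were present, with NEFM at 66.3 to 77.5 CPM and INA at 15.8 to 19.2 CPM. Of the markers of other cell types, the blood gene PTPRC had at most 5 counts in any library, the liver gene ALB at most 6 and the kidney tubule gene UMOD 0, but the fibroblast collagen COL1A1 was at 58.9 to 73.0 CPM. Mitochondrial rRNA made up 0.27% and 0.286% of counts in the EV libraries, 0.0253% and 0.0317% in the sgZNF146 libraries, and 0.168% and 0.0103% in the sgZNF507 libraries, each given as replicate 1 and then replicate 2.

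Promoter sequence was available from RefSeq (GRCh38.p14) for 26 of the 30 genes, in 35 windows that each ran from 250 bases before to 50 bases after a start. No entry was matched for FASN, ACAT2, FDFT1 or SQLE. The windows were searched on both strands for TCACCCCA, the core of the sterol regulatory element, for the E-box CACGTG, for CCAAT, the box bound by NF-Y, and for the GC box GGGCGG. SREBPs bind sterol regulatory elements and often act with NF-Y and Sp1 at neighbouring boxes. The core was in 2 of the 35 windows (5.71%, against 1.54% of 35116 promoter windows), those of SREBF2 and MVK. The 30-base stretches around these matches are shown because they are the only exact matches to TCACCCCA in the 35 windows. Other spellings of the element were not searched. Capitals mark the match.

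SREBF2, chr22:41832961-41832990, plus strand: atgacgcgccaTCACCCCAcgcaccgcttc

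MVK, chr12:109573588-109573617, plus strand: gttcgcagttcTCACCCCAgggcgggacac

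CCAAT was in 20 windows (57.1%, against 34.6%), which belonged to 18 genes, GGGCGG in 30 windows (85.7%, against 45.0%) and CACGTG in 4 windows (11.4%, against 7.26%), those of LSS, SC5D and SCAP. Windows of different starts of a gene can overlap, and the same CACGTG of SC5D was counted in more than a single window. The promoter windows compared with were not chosen by expression. These shares are descriptions, and enrichment was not tested. A CCAAT stretch is shown for each of 4 genes whose transcript was lower in the replicate 2 libraries, as described further on. They are 2 from the mevalonate steps, 1 from the sterol branch and 1 from fatty acid synthesis. Of the 8 genes called lower there that had a window, 5 had CCAAT and 0 had TCACCCCA. Over all 26 genes with a window, 18 had CCAAT, so the box was not particular to the called genes. ATTGG is the same box read on the other strand, capitals mark it, and each stretch is written along the strand of its gene.

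HMGCS1, chr5:43313495-43313524, minus strand: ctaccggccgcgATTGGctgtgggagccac

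IDI1, chr10:1048956-1048985, minus strand: ctggcgcgagcgATTGGctgcgcggcccgg

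DHCR7, chr11:71448470-71448499, minus strand: caggctcctcgaCCAATcacggggcgcgga

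SCD, chr10:100347035-100347064, plus strand: aattcccttcggCCAATgacgagccggagt

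The match in SREBF2 began 133 bases before the start and that in MVK 195 bases before it, whereas the CCAAT boxes shown for HMGCS1, IDI1, DHCR7 and SCD began 100, 87, 94 and 186 bases before it. A match of letters is a description of the window and not a measured binding site.

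The pathway was well expressed, and its most abundant transcript was that of FASN, the synthase that builds palmitate. Per kilobase of summed exon length, FASN was at 222 ± 13 CPM per kb (SD over 6 libraries) and SCD, the desaturase that makes oleate, was at 82.1 ± 7.31 CPM per kb. EBP, the sterol isomerase, followed at 43 ± 1.48 CPM per kb and ACAT2, which joins 2 acetyl-CoA molecules, at 35 ± 1.77 CPM per kb. At the low end, HSD17B7, a reductase of the sterol branch, was at 1.38 ± 0.147 CPM per kb and INSIG2 at 2.64 CPM per kb. The value of HSD17B7 is uncertain, since 2 numbered pseudogenes held 25.8% as many counts. The median over the 30 genes was 15 CPM per kb, and 25 of them lay above the median of 14744 protein-coding genes tested, 4.51 CPM per kb.

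Of the 29 pairs of neighbours in this order, 8 did not overlap over the 6 libraries. These were the steps down from FASN to SCD, from SCD to EBP, from EBP to ACAT2, from FDFT1 to LSS, from LSS to NSDHL, from FADS1 to SC5D, from STARD4 to INSIG2 and from INSIG2 to HSD17B7. All other neighbours overlapped, among them SREBF2 at 29.4 ± 1.23 CPM per kb and SCAP at 28.5 CPM per kb, and SREBF1 at 8.25 ± 1.51 CPM per kb and FADS1 at 8.13 CPM per kb. SREBF1 varied most over the 6 libraries, with a coefficient of variation of 18.4%, followed by ELOVL6, the elongase of palmitate, at 13%. MBTPS1 varied least, at 2.24%.

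**Figure D1:**
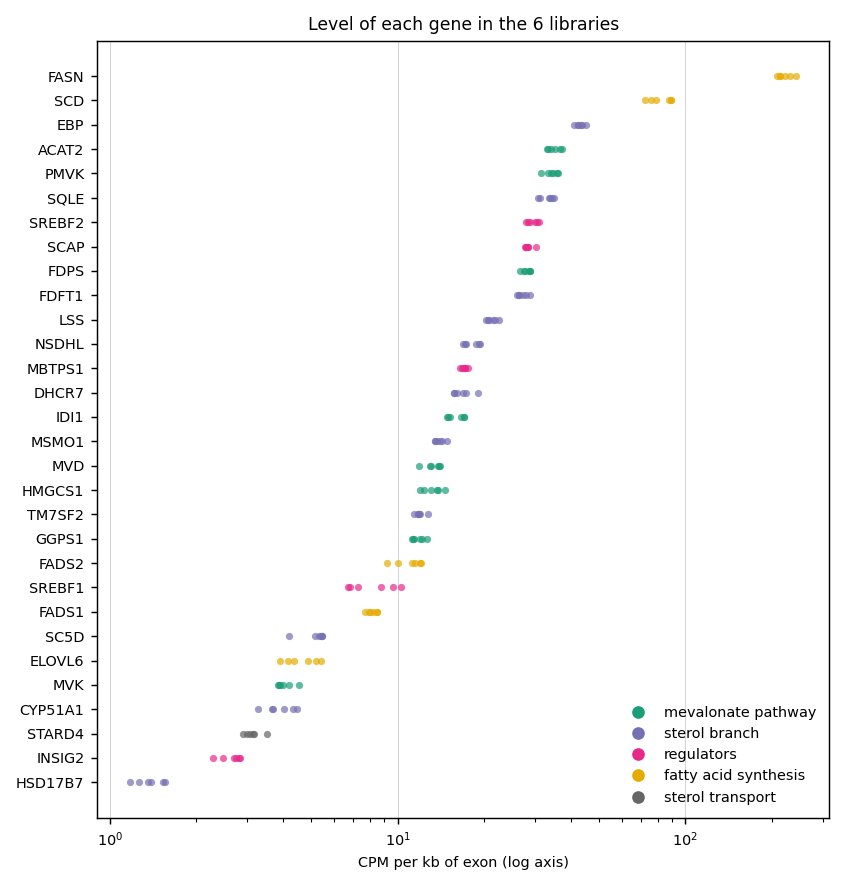
Level of each of the 30 genes in the 6 libraries, as CPM per kilobase of summed exon length on a log axis, coloured by role and ordered by mean. FASN at 222 and SCD at 82.1 CPM per kb lie apart from the rest, and HSD17B7 is lowest at 1.38 CPM per kb.

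To find how disruption of ZNF507 related to the pathway, sgZNF507 was first compared with EV. No gene of the set passed the edgeR quasi-likelihood test (0 of 30 at an adjusted p of 0.05, against 0.182% of all genes tested, 0.114% higher and 0.0682% lower), and DESeq2 also called 0. Estimates were small: 22 of the 30 were positive and 8 negative, from -0.22 to 0.17 on the log2 scale, with a median of 0.035 beside -0.0032 over all genes. At an unadjusted p of 0.05 the test passed 1 of the 30, against 3.39% of all genes. The libraries of the groups did not overlap for 5 genes higher in sgZNF507 (MVD, LSS, NSDHL, SREBF2 and MBTPS1), against 14.0% of all genes, and for 2 lower (INSIG2 and STARD4), against 15.3%.

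The gene that passed without adjustment was MVD, the decarboxylase that makes isopentenyl diphosphate. MVD was at 55.8 and 60.9 CPM in EV, 65.6 and 61.8 CPM in sgZNF146, and 66.1 and 65.3 CPM in sgZNF507. Its log2 difference between sgZNF507 and EV was 0.17 (SE 0.074, 95% interval 0.0086 to 0.33, edgeR adjusted p = 1.00). Both sgZNF507 libraries lay above both EV libraries, but all of the 6 values fell within 55.8 to 66.1 CPM.

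INSIG2, which holds the SREBP complex in the endoplasmic reticulum, was at 10.7 and 11.2 CPM in EV, 10.8 and 11.1 CPM in sgZNF146, and 9.03 and 9.77 CPM in sgZNF507. The sgZNF507 libraries were the lowest of the 6, and the log2 difference from EV was -0.22 (SE 0.12, 95% interval -0.48 to 0.039, edgeR adjusted p = 1.00). NSDHL, a C4 demethylation enzyme of the sterol branch, was at 34.4 and 33.7 CPM in EV, 34.1 and 38.3 CPM in sgZNF146, and 38.7 and 37.3 CPM in sgZNF507. Its log2 difference between sgZNF507 and EV was 0.16 (SE 0.086, edgeR adjusted p = 1.00), and sgZNF146 replicate 2 lay among the sgZNF507 values.

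Of the SREBP genes, SREBF2 was at 233 and 225 CPM in EV, 228 and 245 CPM in sgZNF146, and 241 and 250 CPM in sgZNF507. The sgZNF507 values lay above those of EV, with a log2 difference of 0.1 (SE 0.062, edgeR adjusted p = 1.00). SREBF1 was at 72.1 and 55.5 CPM in EV, 79.2 and 60.1 CPM in sgZNF146, and 84.6 and 56.1 CPM in sgZNF507. Here the libraries of each group spanned more than the groups did, and the log2 difference between sgZNF507 and EV was 0.14 (SE 0.17, 95% interval -0.24 to 0.52). SCAP was at 176 and 178 CPM in EV, 174 and 179 CPM in sgZNF146, and 191 and 176 CPM in sgZNF507, so that all groups overlapped.

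Among the enzymes used as readouts of the pathway, HMGCS1, which makes the precursor of mevalonate, was at 96.7 and 79 CPM in EV, 91 and 82 CPM in sgZNF146, and 91.8 and 86.3 CPM in sgZNF507. SQLE, which adds oxygen to squalene, was at 135 and 150 CPM in EV, 146 and 145 CPM in sgZNF146, and 132 and 148 CPM in sgZNF507. The groups overlapped for both genes. FASN was at 2070 and 1940 CPM in EV, 2160 and 1990 CPM in sgZNF146, and 2260 and 1990 CPM in sgZNF507, and SCD was at 466 and 380 CPM in EV, 459 and 416 CPM in sgZNF146, and 467 and 397 CPM in sgZNF507. For each of these fatty acid genes the groups overlapped, and the log2 differences between sgZNF507 and EV were 0.085 (SE 0.074) for FASN and 0.031 (SE 0.1) for SCD.

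**Figure D2:**
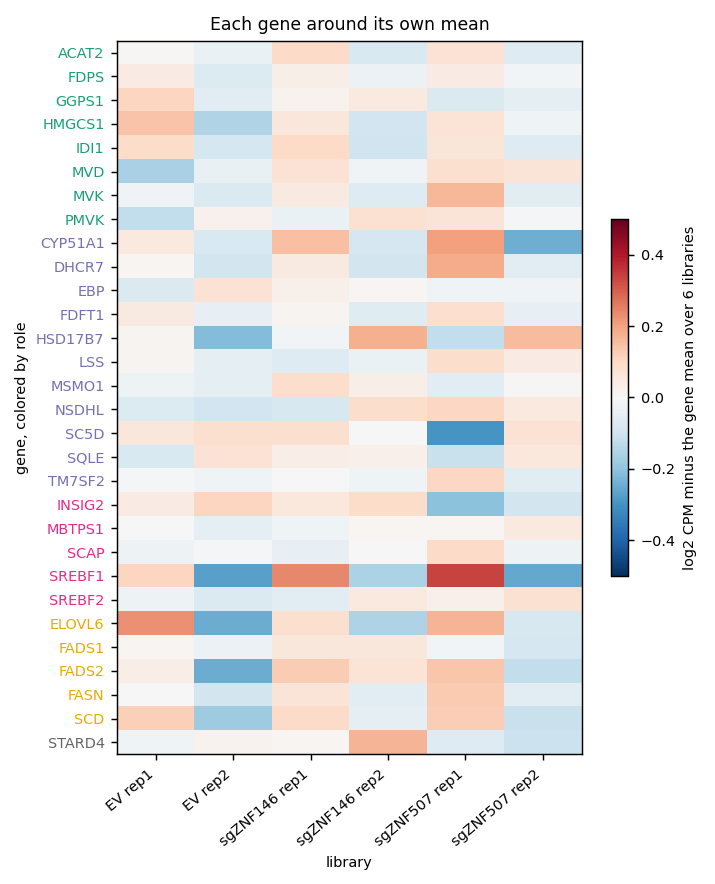
Each gene's log2 CPM in the 6 libraries minus its mean over them, with rows coloured by role. SREBF1, ELOVL6, SCD and HMGCS1 are higher in the replicate 1 library of each group than in its replicate 2 library, and no role separates the 3 groups as blocks.

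The comparison of sgZNF146 with EV, which uses the same EV libraries, gave the same count. The edgeR quasi-likelihood test called 0 of the 30 genes (0% of all genes tested were called), DESeq2 called 0, and 0 passed at an unadjusted p of 0.05, against 2.43% of all genes. The estimates ran from -0.038 to 0.2 on the log2 scale, 22 of them positive and 8 negative, with a median of 0.028 beside -0.0013 over all genes. The libraries did not overlap for 4 genes, all higher in sgZNF146 (MVD, MSMO1, FADS1 and FADS2), against 14.0% of all genes higher and 14.6% lower.

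The smallest unadjusted p values belonged to FADS2, MVD and MSMO1. FADS2, the desaturase that starts the synthesis of highly unsaturated fatty acids, was at 118 and 97.2 CPM in EV, 126 and 121 CPM in sgZNF146, and 127 and 106 CPM in sgZNF507. Its log2 difference between sgZNF146 and EV was 0.2 (SE 0.098, 95% interval -0.015 to 0.41, edgeR adjusted p = 1.00). For MVD the difference from EV was 0.13 (SE 0.075). MSMO1, the methyl sterol oxidase, was at 39.2 and 38.6 CPM in EV, 42.4 and 40.7 CPM in sgZNF146, and 38.4 and 40 CPM in sgZNF507, and its log2 difference between sgZNF146 and EV was 0.095 (SE 0.079).

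Between sgZNF507 and sgZNF146, the edgeR quasi-likelihood test called 0 of the 30 genes, against 0.173% of all genes tested, 0.104% higher and 0.0682% lower. DESeq2 called 0, and 0 passed at an unadjusted p of 0.05, against 4.03% of all genes. Estimates ran from -0.22 to 0.11, with 16 positive and 14 negative and a median of 0.0089 beside -0.004 over all genes. The libraries did not overlap for 1 gene higher in sgZNF507, against 15.5% of all genes, and for 6 lower, against 16.5% (32.1% in either direction). LSS, which closes the first sterol ring system, was the gene that was higher, at 163 and 158 CPM in sgZNF507, 147 and 150 CPM in sgZNF146, and 155 and 149 CPM in EV, a log2 difference of 0.11 (SE 0.06) between the targeted groups. The difference was -0.22 (SE 0.12) for INSIG2. STARD4 was at 17 and 16.5 CPM in sgZNF507, 17.9 and 20 CPM in sgZNF146, and 17.5 and 18 CPM in EV, a log2 difference of -0.18 (SE 0.1) between the targeted groups.

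The precision of these comparisons came from 2 libraries a group, with a median SE of 0.083 on the log2 scale over the 30 genes. The 95% interval for SREBF1 between sgZNF507 and EV reached a fold of 1.43, and that for HSD17B7 between sgZNF146 and EV reached a fold of 1.45. Differences within those intervals were not excluded for these genes by this fit, which has no term for the replicate number. With the number as a block, the SE of SREBF1 in sgZNF507 against EV was 0.061 in place of 0.17. The smallest p that an exact permutation test of 2 against 2 libraries allows is 33.3%, so single genes were tested only in the fit over all genes.

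**Figure D3:**
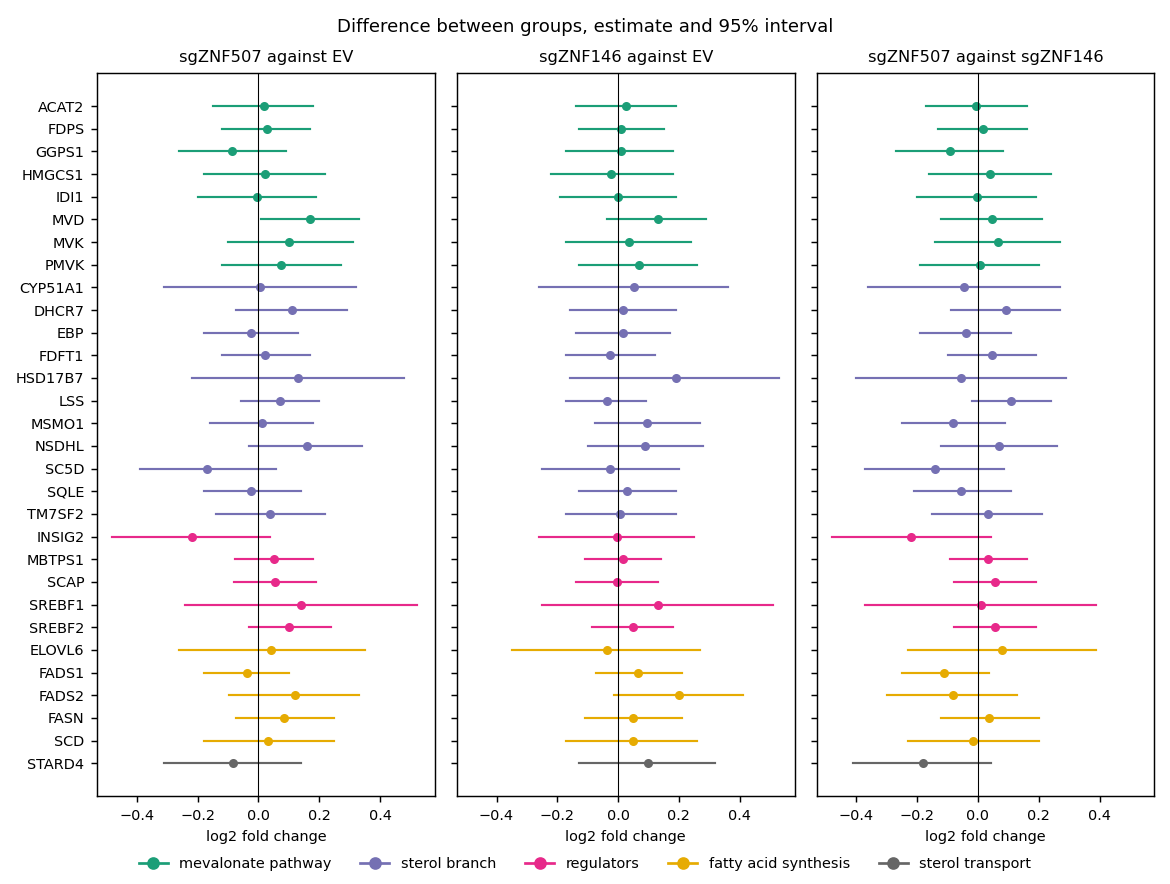
Log2 fold change of each gene in the 3 comparisons of groups, with 95% intervals from the edgeR fit and 1 panel per comparison. Points lie between -0.22 and 0.2, and the interval of MVD between sgZNF507 and EV, from 0.0086 to 0.33, is the one that leaves out 0.

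The spread within groups was then examined, because the set was to be described across both replicate numbers. SREBF1 had already been seen to differ more between the libraries of a group than between groups. The genes of the set were chosen with earlier results of these data known. Their share of calls beside that of all genes is therefore a description, not a test of the set. In a fit with the group as a term, the replicate 2 libraries were compared with the replicate 1 libraries. The labels do not say whether a replicate number stands for a shared culture, day or sequencing run, so the number is used here only as a label. By the edgeR quasi-likelihood test, 9 of the 30 genes were lower in the replicate 2 libraries and 0 were higher, where 7.25% of all genes tested were called, 3.44% lower and 3.81% higher. Among the 11711 genes with a mean CPM at least that of the lowest gene of the set, 5.40% were called lower. The genes that fell were 4 of the 5 fatty acid genes tested (ELOVL6, SCD, FADS2 and FASN), 2 of the 8 from acetoacetyl-CoA to the isoprenoids (HMGCS1 and IDI1), 2 of the 11 sterol branch genes (CYP51A1 and DHCR7) and 1 of the 5 regulators (SREBF1).

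SREBF1, on chromosome 17 from 17713713 to 17740316 (GRCh37), fell most. It was at 72.1 to 84.6 CPM in the replicate 1 libraries and at 55.5 to 60.1 CPM in the replicate 2 libraries, without overlap. The fitted log2 difference was -0.46 (SE 0.05, 95% interval -0.56 to -0.36, edgeR adjusted p = 3.89e-09), a fold of 0.729. Relative to replicate 1 of its own group, the replicate 2 level was 0.77-fold for EV, 0.759-fold for sgZNF146 and 0.664-fold for sgZNF507. An exon of RAI1 overlaps SREBF1 on the opposite strand. RAI1 was at a mean of 173 CPM and was also lower in the replicate 2 libraries, with a log2 difference of -0.15 (SE 0.041, edgeR adjusted p = 0.0132). The libraries were strand specific, but the strand setting of the counting is not given in the sources used here, and 15 of the 30 genes have an exon overlap of this kind.

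The fatty acid enzymes that fell ranged from ELOVL6, next after SREBF1 in size, to FASN, the smallest difference of the 9. ELOVL6, on chromosome 4, was at 39.3, 35.5 and 37.8 CPM in replicate 1 of the EV, sgZNF146 and sgZNF507 groups and at 28.3, 30.2 and 31.8 CPM in replicate 2. Its log2 difference was -0.32 (SE 0.062, edgeR adjusted p = 0.00037), and the numbered libraries did not overlap. SCD, on chromosome 10, was at 459 to 467 CPM in the replicate 1 libraries and at 380 to 416 CPM in the replicate 2 libraries, a log2 difference of -0.22 (SE 0.046, edgeR adjusted p = 0.000974). FADS2, on chromosome 11, had a log2 difference of -0.2 (SE 0.045, edgeR adjusted p = 0.00211), but its replicate 1 values of 118 to 127 CPM overlapped its replicate 2 values of 97.2 to 121 CPM, and the difference within sgZNF146 was -0.069. Its exons overlap those of FEN1 on the same strand and FADS1 on the opposite strand, which had log2 differences of -0.055 and -0.037. FASN was at 2070 to 2260 CPM in the replicate 1 libraries and at 1940 to 1990 CPM in the replicate 2 libraries, a log2 difference of -0.13 (SE 0.042, edgeR adjusted p = 0.0424). The fifth gene, FADS1, which desaturates the products of FADS2, was at 83.7, 86.5 and 82.3 CPM in replicate 1 of the EV, sgZNF146 and sgZNF507 groups and at 81.5, 86.4 and 78.5 CPM in replicate 2, and was not called.

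**Figure D4:**
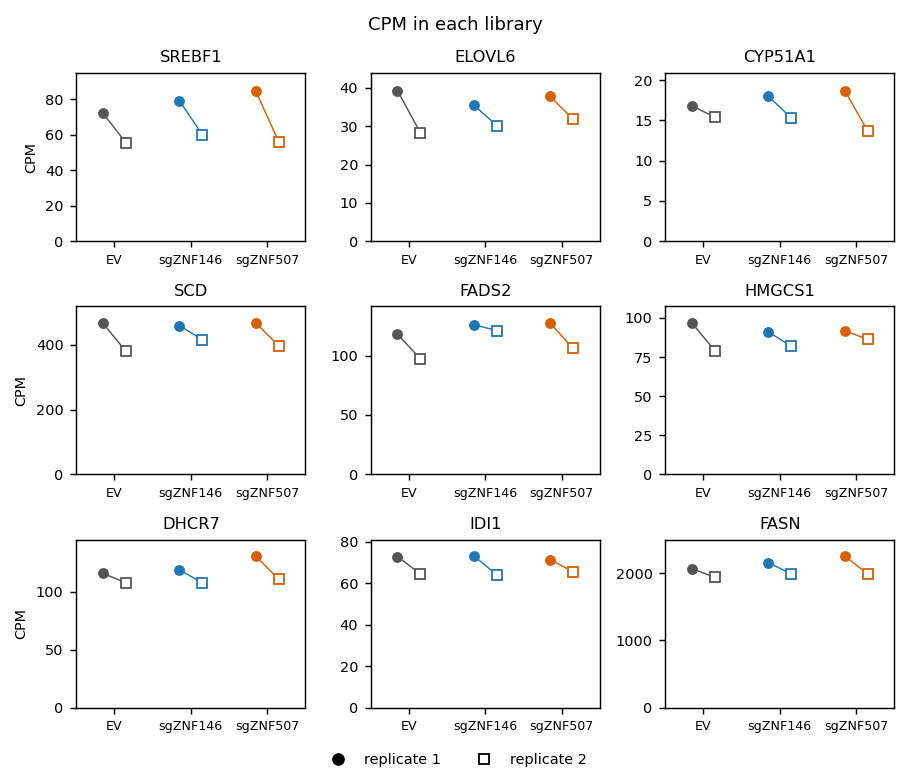
CPM in each of the 6 libraries for the 9 genes called between replicate numbers, 1 panel per gene, with filled circles for replicate 1 and open squares for replicate 2 and axes from 0. SREBF1 at 72.1 to 84.6 against 55.5 to 60.1 CPM has the smallest fitted ratio of replicate 2 to replicate 1, 0.729, and FADS2 is the gene whose numbered libraries overlap.

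Of the genes from acetoacetyl-CoA to cholesterol that fell, CYP51A1 had the largest difference, below ELOVL6 and above SCD in size. HMGCS1 had a log2 difference of -0.18 (SE 0.046, edgeR adjusted p = 0.00997), with -0.29 in EV, -0.15 in sgZNF146 and -0.089 in sgZNF507. IDI1, which interconverts the 5-carbon isoprenoids, was at 72.8, 73.2 and 71.3 CPM in replicate 1 of the EV, sgZNF146 and sgZNF507 groups and at 64.4, 63.9 and 65.5 CPM in replicate 2, a log2 difference of -0.16 (SE 0.047, edgeR adjusted p = 0.0227). DHCR7, the last reductase before cholesterol, was at 116, 119 and 131 CPM in replicate 1 and at 108, 108 and 111 CPM in replicate 2, a log2 difference of -0.16 (SE 0.043, edgeR adjusted p = 0.0164). CYP51A1, the lanosterol demethylase, was at 16.8, 18 and 18.7 CPM in replicate 1 and at 15.4, 15.3 and 13.7 CPM in replicate 2, a log2 difference of -0.27 (SE 0.079, edgeR adjusted p = 0.0266). The value of CYP51A1 is uncertain, since 3 numbered pseudogenes held 7.64% as many counts and since exons of AKAP9, at a mean of 100 CPM and with a log2 difference of 0.11 (SE 0.045), overlap it on the opposite strand.

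The remaining genes were not called. SQLE, with a log2 difference of 0.1 and an adjusted p of 0.156 by edgeR, was the 1 gene higher among the 13 that passed an unadjusted p of 0.05, which 19.5% of all genes passed. The other regulators had log2 differences of 0.034 (SREBF2), -0.019 (SCAP), 0.071 (INSIG2) and 0.0084 (MBTPS1). ACAT2, FDFT1, FDPS and MVK had log2 differences of -0.12, -0.096, -0.073 and -0.13. SC5D, the sterol desaturase, stood at 42.1 CPM in sgZNF507 replicate 1 and at 51.8 to 54.7 CPM in the other libraries. Counted without a fit, 15 of the 30 genes were lower in replicate 2 in each of the 3 groups, against 19.3% of all genes, and 1, INSIG2, was higher in each, against 20.3%. The 3 replicate 2 libraries lay wholly below the 3 replicate 1 libraries for 13 genes, against 10.4% of all genes, and wholly above them for 0, against 11.7%.

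**Figure D5:**
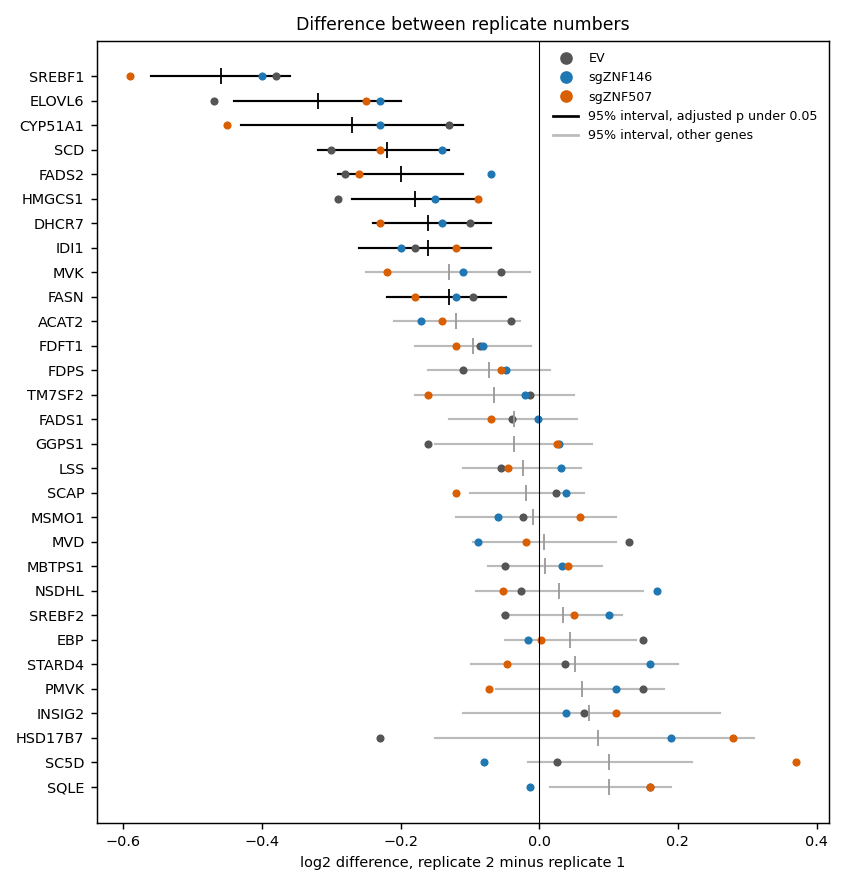
Log2 CPM of replicate 2 minus replicate 1 within each of the 3 groups (dots), with the fitted difference and its 95% interval (tick and line, black where called). For SREBF1 the 3 groups lie between -0.59 and -0.38, and the fitted differences of the regulators SREBF2, SCAP and MBTPS1 are 0.034, -0.019 and 0.0084, with dots from -0.12 to 0.1.

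The calls did not rest equally on all groups. SREBF1, ELOVL6, SCD and FADS2 were called in all 12 settings tried. FASN was called in 8, and CYP51A1, DHCR7, HMGCS1 and IDI1 in 7. These 12 settings include the fit reported here and the fits that leave out each of the 6 libraries in turn. With the group as a term, a library left alone in its group adds nothing to the replicate difference. Leaving out either library of a group is therefore not a separate check. The count of called genes was 4 with either sgZNF146 library left out, 6 with either sgZNF507 library and 8 with either EV library. Over all genes, 1596 were called in the reported fit and 956 to 1239 with 1 library left out. DESeq2 called 5 of the 30, and its lower count over all genes is given further on. With 1 library for each group and number, whether the difference between numbers varied among groups could not be tested.

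Several library properties were set beside the replicate difference. The share of all counts held by the 30 genes was 0.481% in replicate 1 and 0.446% in replicate 2 of EV, 0.477% and 0.466% in sgZNF146, and 0.515% and 0.47% in sgZNF507. Replicate 2 was the deeper library in EV (27845834 against 24883624 counts) and sgZNF507 (28524025 against 22724439) and the shallower in sgZNF146 (25104488 against 26191267). Mitochondrial mRNA took 2.61%, 2.62% and 2.22% of counts in replicate 1 of the EV, sgZNF146 and sgZNF507 groups and 2.82%, 2.53% and 2.32% in replicate 2. The share of the 30 genes is made of the same counts as the replicate difference, so it is not a separate property. The part of depth and of the mitochondrial mRNA share in the result was not tested.

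Other genes of the pathway were taken from lists of 71 genes, of which 68 were tested: 11 of isoprenoid use, 14 further regulators, 16 of sterol uptake and traffic, and 27 of fatty acid supply and lipid assembly. By edgeR, 0 of the 68 were called in each comparison of groups, with 0, 2 and 2 at an unadjusted p of 0.05 in sgZNF507 against EV, sgZNF146 against EV and sgZNF507 against sgZNF146. Over all genes 0.182%, 0% and 0.173% were called in these comparisons, and 3.39%, 2.43% and 4.03% passed without adjustment. In sgZNF507 against EV the smallest p in each list belonged to LBR, a sterol reductase of the nuclear envelope (log2 difference -0.11), MLX, partner of the glucose-sensing factor MLXIPL (-0.092), the lipoprotein receptor VLDLR (0.28) and the citrate carrier SLC25A1 (0.14). In sgZNF146 against EV they were DHDDS, which makes dolichol chains (-0.1), MLX (0.092), SLC25A1 (0.19) and the cholesterol exporter ABCA1, which was low, at 1.08 ± 0.511 CPM in EV against 0.574 ± 0.0245 CPM in sgZNF146 (SD over 2 libraries), and differed by -0.9 on the log2 scale (SE 0.39). Between the targeted groups they were PGGT1B, a subunit of a protein prenyltransferase (-0.16), MLX (-0.18), VLDLR (0.24) and ACSL4, which activates arachidonate (-0.2).

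Between replicate numbers, 10 of the 68 were called, 4 higher and 6 lower in the replicate 2 libraries, where 7.25% of all genes were called, 3.81% higher and 3.44% lower. The 6 that fell were MLXIPL (log2 difference -0.31), ABCG1, a sterol exporter (-0.46, SE 0.14), MYLIP, the ligase that degrades the LDL receptor (-0.26), the lipoprotein receptor LRP1 (-0.21), the desaturase SCD5 (-0.24) and MID1IP1, which promotes assembly of acetyl-CoA carboxylase (-0.17). The 4 that rose were the prenyltransferase subunits FNTB (0.26) and RABGGTA (0.22), the mitochondrial ketoacyl synthase OXSM (0.36) and GPAM, which starts glycerolipid synthesis (0.21). The adjusted p values of these 10 genes by edgeR lay between 0.0016 and 0.0401.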

How the data were processed

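RNA was sequenced from 6 libraries (3 groups of 2) by strand-specific, ribosome-depleted paired-end sequencing. Per the study's methods and the submitters' processing notes, the authors removed rRNA reads, aligned to hg19 (GRCh37) with TopHat2 and counted reads per Ensembl gene with featureCounts. The deposited values are raw counts per gene, not normalized. Symbols were paired by identifier for 96.1% of 57773 genes. Replicates of a group differed by more than counting noise (chi-square per degree of freedom 6.38 to 9.6). The members and lists were chosen with earlier results of these data known.

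Counts were fitted in edgeR 4.0.16 (R 4.3.3) with TMM scaling, filterByExpr on the 3 groups, all 6 libraries in 1 fit, glmQLFTest, and Benjamini-Hochberg adjustment over 22010 genes at 0.05. SEs and 95% intervals were derived from the F statistics and are approximate. The replicate comparison used the replicate coefficient of a fit with the group. DESeq2 1.42.0 was an alternative, as were other scalings, filters, subsets of libraries, a replicate block and leaving out each library. The scripts were tested on simulated data. Exon overlap and length were taken from the GRCh37 annotation. The rule for named genes took 8 preset genes (SREBF1, SREBF2, SCAP, INSIG2, HMGCS1, SQLE, FASN and SCD) in every library, each gene called, and the 3 with the smallest p per comparison, and for the other lists those called, at most 4 per list, or otherwise the gene with the smallest p. Each p-value sets a difference against the spread between these libraries, and that spread is estimated in part from the other genes of the fit.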

Additional observations from a re-analysis of the deposited data

How the results depend on the processing

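No gene of the set was called in a comparison of groups under any alternative run. The count over all genes moved more: in sgZNF507 against EV, sgZNF146 against EV and sgZNF507 against sgZNF146 it was 40, 0 and 38 as reported and 101, 19 and 112 with no filter on low counts. With only the 4 libraries compared, sgZNF146 against EV had 3 calls by edgeR and 3 by DESeq2. With the replicate number as a block, edgeR called 121, 33 and 196 genes, and DESeq2 called 63 in sgZNF507 against EV and 75 between the targeted groups, with 0 genes of the set in each. Deviations of same-numbered libraries correlated between groups at r = 0.138, 0.176 and 0.145 over 22010 genes, low-count genes included. The common dispersion was 0.0052 in the fit on groups and 0.00201 with the replicate number added. The group tests reported above thus keep the replicate difference in their spread. With 2 pairs a comparison, and no shared culture or day named in the labels, the numbers are not taken to pair the samples. At an unadjusted p of 0.05 the block passed 5, 3 and 1 of the 30 genes, where 7.66%, 5.44% and 8.68% of all genes passed. Under it FADS2 came closest in sgZNF146 against EV (edgeR adjusted p = 0.166), and the SE of SREBF1 in sgZNF507 against EV was 0.061 in place of 0.17 (log2 difference 0.13, edgeR adjusted p = 0.623). Between replicate numbers, DESeq2 called 370 genes and 5 of the set. The cause of these differences was not tested. Leaving out 1 library gave 12 to 44, 0 to 3 and 13 to 37 calls over all genes in the comparisons of groups and 956 to 1239 between numbers, with 4 to 8 of the set. The set's median ran from -0.018 to 0.095 in sgZNF507 against EV, from -0.0017 to 0.069 in sgZNF146 against EV, from -0.044 to 0.067 between the targeted groups and from -0.065 to -0.032 between replicate numbers. Signs of genes not called turned when 1 library was left out. In sgZNF507 against EV the ranges were HMGCS1 -0.12 to 0.18, SQLE -0.098 to 0.054, SREBF1 -0.19 to 0.42, SCAP -0.0085 to 0.12, FASN -0.01 to 0.18 and SCD -0.11 to 0.19. In sgZNF146 against EV they were HMGCS1 -0.17 to 0.13, SQLE -0.049 to 0.11, SREBF1 -0.086 to 0.33, SREBF2 -0.0031 to 0.098, SCAP -0.023 to 0.016 (0.00097 with upper-quartile scaling), INSIG2 -0.036 to 0.023, FASN -0.011 to 0.11 and SCD -0.098 to 0.2. Between the targeted groups they were HMGCS1 -0.031 to 0.12, SQLE -0.13 to 0.023, SREBF1 -0.31 to 0.29, SCAP -0.0059 to 0.13, FASN -0.059 to 0.14 and SCD -0.14 to 0.11, and between replicate numbers SREBF2 -0.0028 to 0.07 and SCAP -0.051 to 0.034. No called gene of the set reversed. With 2 libraries a group, differences within the intervals given were not excluded.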
